A study of Homo sapiens with 6 samples.

Results

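AMPA receptor genes and the genes of their auxiliary subunits were measured in U251 cells, a human glioma line in long use. The set was chosen by gene symbol and holds 10 genes: the subunits GRIA1, GRIA2, GRIA3 and GRIA4, the transmembrane AMPA receptor regulatory proteins (TARPs) CACNG4, CACNG5, CACNG7 and CACNG8, and the cornichons CNIH2 and CNIH3. Of the 10, 9 were among the 16832 gene symbols listed. CACNG5, a type II TARP, is not analysed here. The set was drawn up with the difference between the groups known, so the values of its genes are a description. Calls on them are given further down but are not read as tests.

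RNA sequencing was done on 6 libraries of wild-type (WT) U251 cells. The SLCDS group (3 libraries) was incubated for 18 days with SLCDS, a small-molecule mixture of unstated composition. The control group (3 libraries) was given PBS without SLCDS. The title describes cells converted by SLCDS as neuronal-like, and the comparison sets their transcripts against those of control cells given PBS. How long the control was cultured is not stated, and nothing in the labels says that replicates came from separate cultures, so the spread between replicates may be technical.

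AMPA receptors are glutamate-gated ion channels that carry most fast excitatory transmission in the brain. Each is a tetramer of subunits encoded by GRIA1 to GRIA4. A receptor that contains the GRIA2 product, once that transcript has been edited at the Q/R site in the pore, passes little calcium, and receptors without it pass calcium. TARPs are relatives of a calcium channel gamma subunit that bind the receptor in the membrane. The type I TARPs, among them CACNG4 and CACNG8, carry the receptor to synapses and slow its closing, whereas the type II TARPs CACNG5 and CACNG7 change gating with less effect on transport. Cornichons assist export of the receptor from the endoplasmic reticulum and also slow its gating. In the brain AMPA receptors are found on neurons, on some astrocytes and on oligodendrocyte precursors, and they have been described on glioma cells that receive synaptic input.

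The stretch around the Q/R site is shown because editing there sets calcium entry and because the 4 subunit transcripts are so alike in it. Each line gives 51 coding bases of the GENCODE release 29 transcript, 5′ to 3′ on the plus strand of GRCh38, with the genomic codon of the Q/R site in capitals.
GRIA1: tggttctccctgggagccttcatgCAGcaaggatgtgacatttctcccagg
GRIA2: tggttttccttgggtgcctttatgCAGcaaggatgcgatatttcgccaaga
GRIA3: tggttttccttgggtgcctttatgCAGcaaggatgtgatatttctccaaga
GRIA4: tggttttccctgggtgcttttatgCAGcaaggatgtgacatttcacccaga

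All 4 genes carry the same codon, CAG, at this site. It is codon 610 of GRIA1 (exon 11, chr5:153706042-153706044), codon 607 of GRIA2 (exon 11, chr4:157336722-157336724), codon 618 of GRIA3 (exon 11, chrX:123417753-123417755) and codon 608 of GRIA4 (exon 12, chr11:105924744-105924746), and each 51-base stretch spans 2 exons. GRIA2 and GRIA3 differ at 2 of the 51 bases, and the most different pair, GRIA1 and GRIA2, differs at 9. How the authors assigned fragments that fit more than 1 subunit is not stated. FPKM gives a transcript level and holds no information on whether the codon was edited.

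The end of the coding sequence is shown for the 3 TARPs that were measured, because it is a known difference between the types: type I TARPs end in a typical motif that binds synaptic PDZ scaffolds. Each line gives the last 36 coding bases before the stop codon, with the last 12 in capitals, from GENCODE release 29 on GRCh38, plus strand.
CACNG4: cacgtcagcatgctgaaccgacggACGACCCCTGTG
CACNG8: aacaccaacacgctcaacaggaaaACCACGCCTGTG
CACNG7: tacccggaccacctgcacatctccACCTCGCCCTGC

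The stretch lies in exon 4 of CACNG4 (chr17:67030966-67031001), exon 4 of CACNG8 (chr19:53982811-53982846) and exon 5 of CACNG7 (chr19:53942255-53942290). The coding sequences hold 327 codons in CACNG4, 425 in CACNG8 and 275 in CACNG7. CACNG7 and CACNG8 lie next to each other on chromosome 19.

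The deposited FPKM (fragments scaled by transcript length and library depth) of each gene were whole multiples of a fixed step, which gave back whole fragments for all 16832 genes. The recovered libraries held 16414773 to 17017479 fragments in SLCDS and 16127785 to 16812738 in control. An FPKM of 1 on a transcript of 2000 bases stood for 32.6 to 34.4 fragments. Control replicate 3 stood apart: its log-scale values correlated with those of the other controls at r = 0.976 and 0.977 across genes, against 0.997 between control replicates 1 and 2 and among the SLCDS libraries. For genes of the set, differences that rest on it are given with and without it. Other genes are given with all 6 libraries unless stated. The glioma and neural stem markers VIM, NES and SOX2 summed to 2124 to 2214 FPKM in SLCDS and 1995 to 2390 in control, and the astrocyte marker GFAP averaged 135 and 339 FPKM, so markers of the labelled cell type were present in both groups. The neuronal markers summed to 52.7 to 53.7 FPKM in SLCDS and 64.0 to 64.7 in control, a sum made up mostly of TUBB3 (mean 29.5 and 39.4 FPKM) and MAP2 (14.7 and 18.5). Of the 10 markers, 5 lay higher in every SLCDS library than in any control (SYN1, SYP, SNAP25, STMN2 and ELAVL4), 1 lay lower (TUBB3) and 4 overlapped. Of all listed genes, 14.4% lay higher in this way and 10.8% lower. MAP2 overlapped through control replicate 3, and its log2 fold change was -0.28 with that library and -0.50 without it. SNAP25 averaged 6.24 and 4.85 FPKM and SYP 1.08 and 0.714 FPKM, STMN2 had at most 3 fragments in any library, and RBFOX3, a marker of mature neurons, was under 0.1 FPKM in every library.

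Among the subunits, GRIA2 and GRIA4 lay higher in SLCDS in every library, GRIA3 did not separate the groups, and GRIA1 was close to absent. GRIA2, the subunit that limits calcium entry when edited, had 3.29, 3.66 and 3.76 FPKM in SLCDS replicates 1 to 3 and 2.48, 2.16 and 1.62 FPKM in control replicates 1 to 3. The lowest SLCDS library was above the highest control. The means were 3.57 ± 0.247 FPKM (SD, n = 3) in SLCDS and 2.09 ± 0.434 FPKM (SD, n = 3) in control, a ratio of 1.71. On the log2(FPKM + 1) scale, on which changes of low genes look smaller, the difference was 0.57 with a standard error of 0.13. Control replicate 3 was the lowest, at 0.699 times the mean of the other controls, and without it the ratio was 1.54 and the log2 difference 0.46. GRIA2 rested on 326 to 380 fragments in SLCDS and 162 to 238 in control, and its control libraries varied more (coefficient of variation 20.8%) than counting alone gives (7.03%).

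GRIA3, a subunit that forms calcium-permeable channels when it is not joined by the GRIA2 product, had 2.77, 2.46 and 2.76 FPKM in SLCDS and 3.40, 3.74 and 2.23 FPKM in control. The groups overlapped through control replicate 3, which was the lowest of all 6 libraries, while control replicates 1 and 2 were the highest. The means were 2.66 ± 0.175 FPKM in SLCDS and 3.12 ± 0.792 FPKM in control (SD, n = 3 each), a ratio of 0.854 and a log2 difference of -0.15 with a standard error of 0.17. Without control replicate 3 the ratio was 0.747, the log2 difference -0.32, and every SLCDS library lay below both controls, as was so for 26.6% of the tested genes. The direction is therefore the same in both readings, but separation of the groups depended on leaving that library out.

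GRIA4, the subunit of fast-gating receptors, had 0.296, 0.376 and 0.374 FPKM in SLCDS and 0.142, 0.130 and 0.107 FPKM in control. All 3 SLCDS libraries were above all 3 controls. The mean level rested on 80 to 103 fragments per SLCDS library and 29 to 37 per control library. The ratio of the means, 0.349 ± 0.0455 over 0.126 ± 0.0178 FPKM (SD, n = 3 each), was 2.77, and the ratio of summed fragments had a 95% counting interval of 2.20 to 3.52. Without control replicate 3 the ratio was 2.57. On the log2 scale the difference was 0.26 with a standard error of 0.03, because the added 1 FPKM is larger than the gene's own level. GRIA4 did not reach the filter on low values (3 or more libraries at 1 FPKM or above). Of the listed genes under that filter, 11.9% had all SLCDS libraries above all controls.

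The FPKM of GRIA4 also depends on the transcript length used by the authors. Its step size gives a length of 16023 bases, against 5621 bases for the longest coding transcript in GENCODE, a factor of 2.85. For the other listed genes of the set the 2 lengths were closer, for instance 5886 against 5621 bases for GRIA2 and 5687 against 5173 for GRIA3. The ratio between groups does not depend on the length, but the level of GRIA4 beside the other subunits does.

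GRIA1, the subunit most used in activity-dependent receptor insertion, was at or under 3 fragments in every library. It had 2, 1 and 1 fragments in SLCDS and 0, 0 and 3 in control, so no fold is given. Both groups lay at or under the limit that a count of 0 allows.

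**Figure D1:**
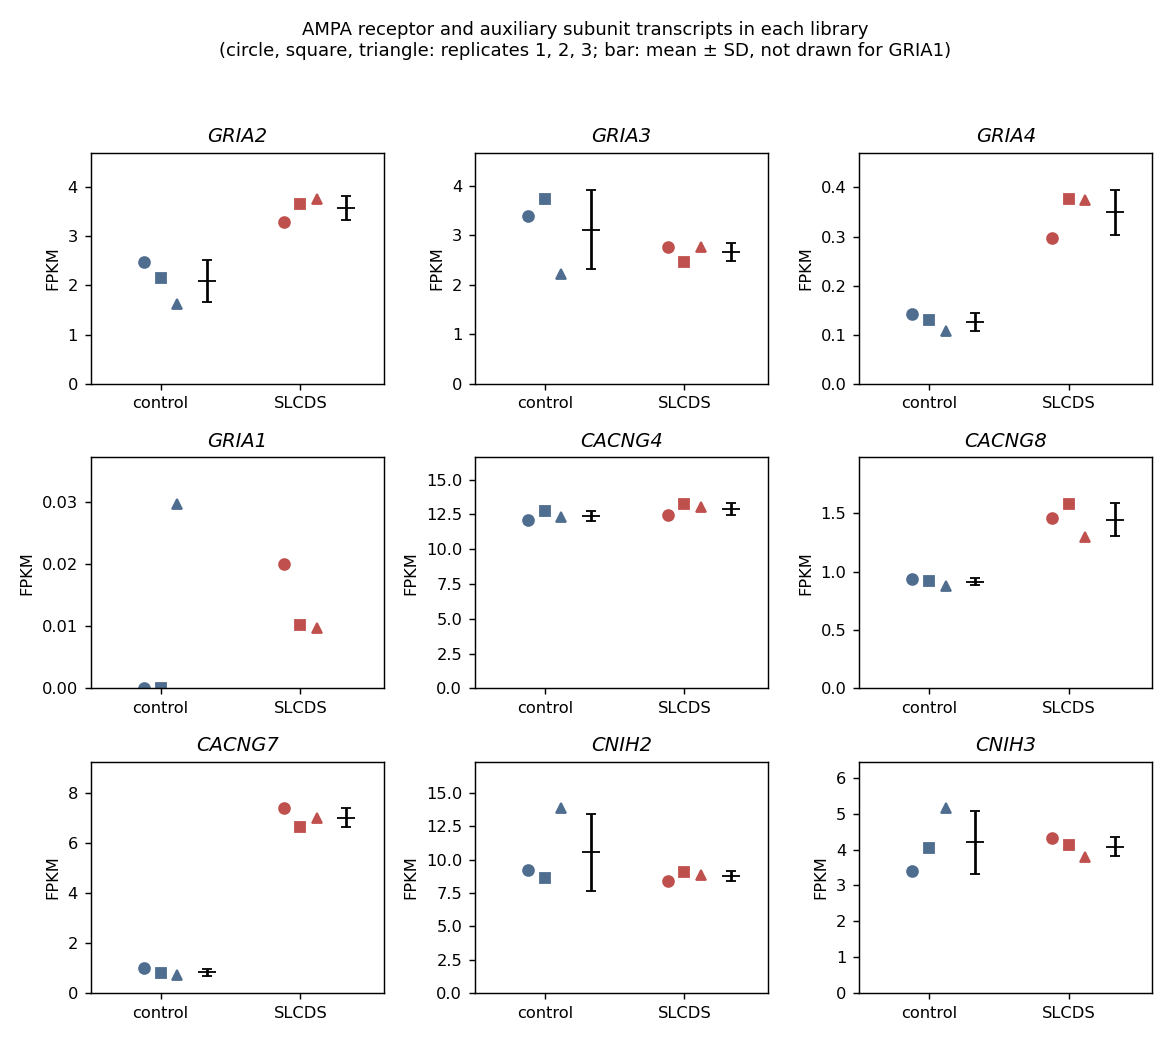
FPKM of the 9 listed genes in each of the 6 libraries (vertical axis, linear, each panel with its own scale from 0), with control in blue and SLCDS in red; bars give the mean ± SD of 3 libraries and are left out for GRIA1. GRIA2, GRIA4, CACNG8 and CACNG7 have all 3 SLCDS libraries above all 3 controls, while control replicate 3 (triangle) is the lowest library for GRIA3 and the highest for CNIH2 and CNIH3.

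Because FPKM is per length, the subunits can be set beside each other within a library. GRIA2 made up 51.6%, 56.2% and 54.4% of the summed FPKM of the 4 subunits in SLCDS and 41.2%, 35.8% and 40.7% in control. GRIA3 made up 43.4%, 37.8% and 40.02% in SLCDS and 56.4%, 62.0% and 55.9% in control. The leading subunit transcript was thus GRIA2 in each SLCDS library and GRIA3 in each control. The ratio of GRIA2 to GRIA3 was 1.19 to 1.49 in SLCDS and 0.578 to 0.730 in control, and control replicate 3, at 0.728, lay within the range of the other controls although both of its levels were low.

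GRIA4 held a mean share of 5.29% ± 0.578 in SLCDS and 2.40% ± 0.259 in control (SD, n = 3 each). With GENCODE lengths in place of the authors', its share was 6.10% ± 0.642 in control and 12.9% ± 1.32 in SLCDS, and GRIA2 held 36.7% ± 2.72 and 48.7% ± 1.73. GRIA1 stayed under 1% in every library. The summed FPKM of the subunits was 6.37, 6.51 and 6.90 in SLCDS and 6.02, 6.03 and 3.98 in control, so the SLCDS libraries were above all controls, by a small margin once control replicate 3 is set aside. In bulk RNA fewer cells with a transcript and less transcript per cell cannot be told apart, and this holds for every level given here.

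Of the TARPs, the type II gene CACNG7 showed the widest separation of the set, CACNG8 a smaller one, and CACNG4 overlapped. CACNG4, a type I TARP known from developing brain and glia, was the most abundant transcript of the set, with 12.4, 13.3 and 13.0 FPKM in SLCDS and 12.1, 12.7 and 12.3 FPKM in control. The ratio of its means, 12.9 ± 0.431 over 12.4 ± 0.339 FPKM (SD, n = 3 each), was 1.04, and its log2 difference was 0.06 with a standard error of 0.03. With 705 to 801 fragments per library it was also the most deeply read gene of the set, and the 95% counting interval of the ratio of summed fragments was 0.983 to 1.11. Control replicate 3, at 0.994 times the other controls, did not stand apart for this gene.

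CACNG8, the type I TARP that is prominent in hippocampus, had 1.46, 1.58 and 1.30 FPKM in SLCDS and 0.936, 0.924 and 0.880 FPKM in control. The groups did not overlap. The means were 1.45 ± 0.144 and 0.913 ± 0.0298 FPKM (SD, n = 3 each), a ratio of 1.58 and a log2 difference of 0.35 with a standard error of 0.05. Without control replicate 3 the ratio was 1.55. The gene rested on 197 to 232 fragments in SLCDS and 132 to 135 in control, and the counting interval of the ratio was 1.39 to 1.80.

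CACNG7 had 7.38, 6.64 and 6.98 FPKM in SLCDS and 0.981, 0.804 and 0.707 FPKM in control. The lowest SLCDS library was several times the highest control. These levels rested on 342, 303 and 330 fragments in SLCDS and on 44, 36 and 33 fragments in control. The means, 7.0 ± 0.368 and 0.830 ± 0.139 FPKM (SD, n = 3 each), gave a ratio of 8.43, with a 95% counting interval of 6.95 to 10.4 for the ratio of summed fragments. The log2 difference was 2.13 with a standard error of 0.07, and without control replicate 3 it was 2.08 and the ratio 7.85. Replicates varied about as much as counting alone gives, 5.26% against 5.55% in SLCDS and 16.7% against 16.3% in control.

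The ratio of the neighbours CACNG7 and CACNG8 shows how unequally they differed. Per length, CACNG7 was 5.06, 4.2 and 5.38 times CACNG8 in SLCDS and 1.05, 0.870 and 0.803 times CACNG8 in control. CACNG7 was 0.50 to 0.593 times CACNG4 in SLCDS and 0.0572 to 0.0812 times CACNG4 in control.

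In shares of the summed FPKM of the 3 measured TARPs, CACNG7 held 34.7%, 30.9% and 32.8% in SLCDS and 7.01%, 5.55% and 5.07% in control. CACNG4 held 60.5% ± 1.75 in SLCDS and 87.7% ± 1.21 in control (SD, n = 3 each), although its own level overlapped between the groups. CACNG8 held 6.77% ± 0.640 and 6.46% ± 0.201. The summed TARP level was 21.3, 21.5 and 21.3 FPKM in SLCDS and 14.0, 14.5 and 13.9 FPKM in control, and control replicate 3 did not stand apart in this sum.

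**Figure D2:**
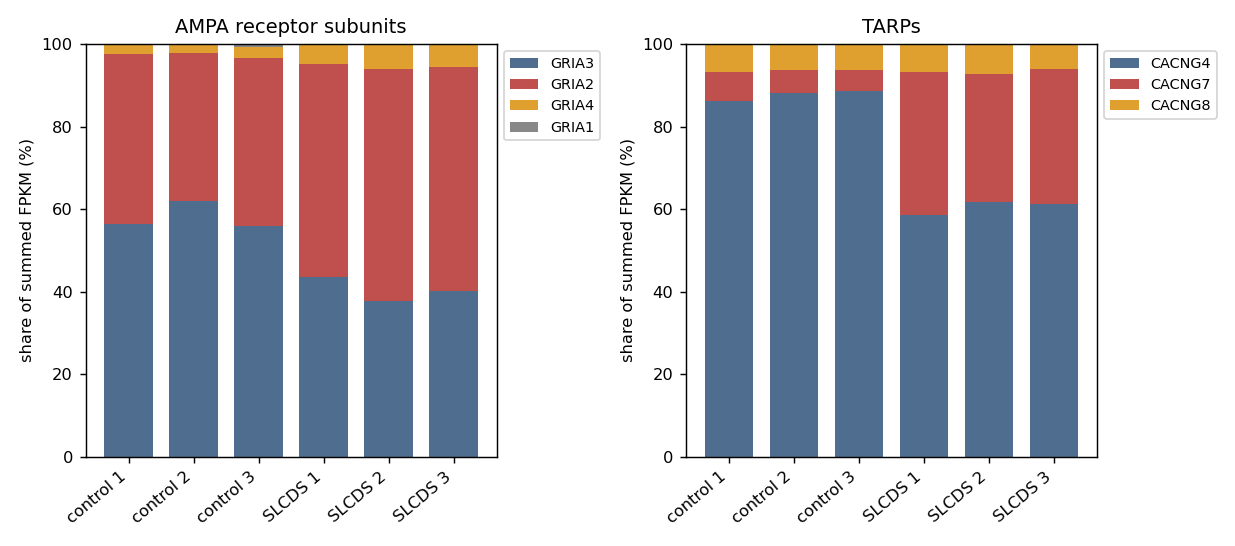
Share of each gene (percent, vertical axis) in the summed FPKM of the 4 AMPA receptor subunits (left) and of the 3 measured TARPs (right), 1 stacked bar per library. GRIA2 holds 51.6% to 56.2% in SLCDS and 35.8% to 41.2% in control, and CACNG7 holds 30.9% to 34.7% in SLCDS and 5.07% to 7.01% in control.

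The cornichons did not separate the groups. CNIH2 had 8.39, 9.10 and 8.82 FPKM in SLCDS and 9.20, 8.59 and 13.9 FPKM in control. All libraries but control replicate 3 lay close together, and that library was at 1.56 times the other controls. The ratio of the means was 0.831 with it and 0.986 without it, and the log2 difference -0.21 (standard error 0.20) and -0.02. CNIH3 had 4.33, 4.13 and 3.79 FPKM in SLCDS and 3.40, 4.04 and 5.16 FPKM in control. Its log2 difference was -0.02 with a standard error of 0.15, and 0.11 without control replicate 3, a library at 1.39 times the other controls. The difference was also above 0 with a common FPKM sum (0.0066) and without SLCDS replicate 3 (0.02), so it has no settled direction.

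CNIH2 made up 68.2% ± 2.05 of the summed cornichon FPKM in SLCDS and 71.3% ± 2.86 in control (SD, n = 3 each). The summed level was 12.9 ± 0.327 FPKM in SLCDS and 14.8 ± 3.70 FPKM in control, with 19.02 FPKM in control replicate 3 and a mean of 12.6 FPKM in the other controls. The direction in which control replicate 3 departed was not shared by the set: it was low for GRIA2, GRIA3, GRIA4 and CACNG7 (0.624 to 0.792 times the other controls), close to them for CACNG4 and CACNG8 (0.994 and 0.946) and high for both cornichons.

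**Figure D3:**
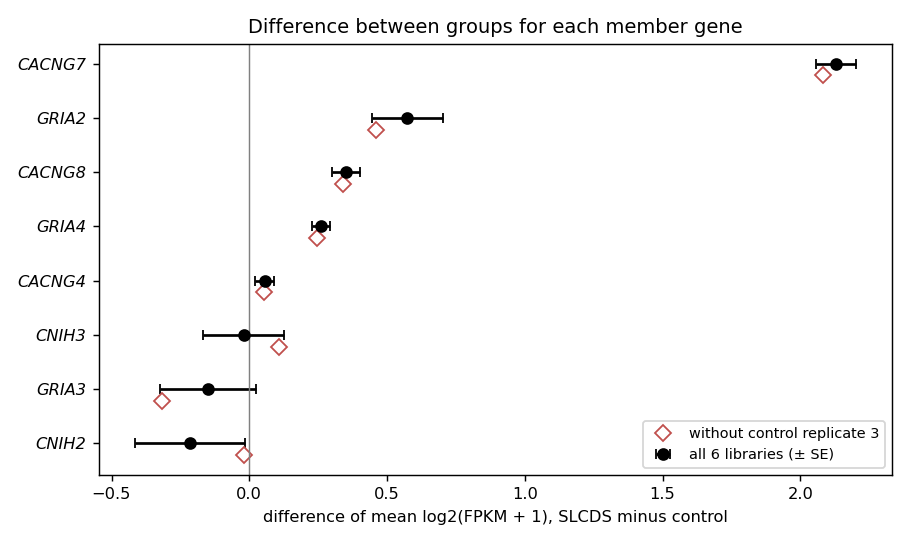
Difference of the group means of log2(FPKM + 1), SLCDS minus control (horizontal axis), for 8 genes of the set, GRIA1 left out. Filled circles with bars give all 6 libraries and the standard error, open diamonds the value without control replicate 3. CACNG7 lies at 2.13, GRIA2, CACNG8 and GRIA4 lie between 0.26 and 0.57, and CNIH3 changes sign without that library, as it does with a common FPKM sum and without SLCDS replicate 3.

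By limma's test at an adjusted p under 0.05, 3 of the 7 genes of the set that passed the filter were called higher in SLCDS (GRIA2, CACNG7 and CACNG8) and 0 lower, where 4.28% of the 11506 tested genes were called higher and 1.82% lower. The set was chosen with this contrast in view, so nothing is read from the count. With each library's trend with length and GC removed, the calls over all genes were 1020 higher and 973 lower, in place of 492 and 209. CACNG7 and CACNG8 were under 1 FPKM in every control and passed the filter through their SLCDS libraries, so they had to differ. The call of CACNG7 held in 18 of 18 other settings, that of GRIA2 in 11 and that of CACNG8 in 9. Those of GRIA2 and CACNG8 were lost without any 1 SLCDS replicate. Because the genes were chosen with the contrast known, a call kept across settings is no support for a difference. Without control replicate 3 the same 3 genes were called higher and GRIA3 was called lower, where 16% of tested genes were called higher and 11.8% lower. Groups lay apart with SLCDS higher for 4 of the 9 listed genes, against 14.4% of all listed genes, and with SLCDS lower for 0, against 10.8%. The median log2 difference was 0.06 over the 7 genes and 0.00036 over all tested genes.

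In SLCDS the order of the levels per length was CACNG4, CNIH2, CACNG7, CNIH3, GRIA2, GRIA3, CACNG8, GRIA4 and GRIA1, and no neighbours in this order overlapped between their libraries. In control the order was CACNG4, CNIH2, CNIH3, GRIA3, GRIA2, CACNG8, CACNG7, GRIA4 and GRIA1. There CACNG4 overlapped with CNIH2, CNIH3 with GRIA3, GRIA3 with GRIA2, and CACNG8 with CACNG7. CACNG7 stood at place 3 of 9 in SLCDS and at place 7 in control. GRIA2 and GRIA3 exchanged places.

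Genes beside the TARP genes were read in RefSeq order. On chromosome 19 the genes read were MYADM before CACNG7, and CACNG6 and VSTM1 after CACNG8. MYADM, which encodes a membrane protein of lipid rafts, had 16.6 ± 0.219 FPKM in SLCDS and 13.8 ± 1.40 FPKM in control (SD, n = 3 each). Its log2 fold change was 0.25 (adjusted p 0.164 by limma) and 0.32 without control replicate 3 (adjusted p 0.00264 by limma). CACNG6, a muscle calcium channel gamma subunit gene directly after CACNG8, had at most 1 fragment in any library, and VSTM1, an immune receptor gene, likewise.

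On chromosome 17 the order was APOH, PRKCA, CACNG5, CACNG4, CACNG1 and HELZ. PRKCA, a protein kinase C gene, had 28.9 ± 1.07 FPKM in SLCDS and 26.7 ± 6.28 FPKM in control (adjusted p 0.729 by limma), with control replicate 3 lowest at 19.4. HELZ, an RNA helicase gene, had 10.1 ± 0.871 and 9.25 ± 3.50 FPKM (adjusted p 0.774 by limma), with control replicate 3 lowest at 5.22. CACNG1, the skeletal muscle gamma subunit gene, had 1 to 7 fragments in each library, and APOH, a plasma apolipoprotein gene, had at most 2.

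**Figure D4:**
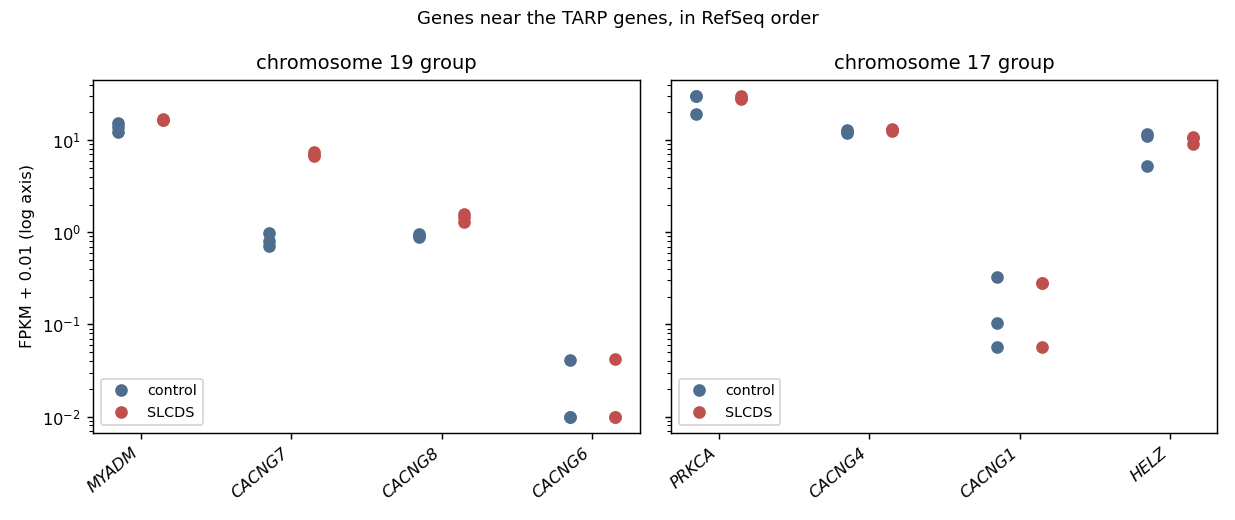
FPKM + 0.01 (vertical axis, logarithmic) of genes near CACNG7 and CACNG8 on chromosome 19 (left) and beside CACNG4 on chromosome 17 (right), in RefSeq order, with 3 control (blue) and 3 SLCDS (red) libraries per gene. CACNG7 stands at 6.64 to 7.38 FPKM in SLCDS and 0.707 to 0.981 in control, while CACNG6 is near 0 in both groups.

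The tested genes whose profile over the 6 libraries was most like that of CACNG7 were ranked by the Euclidean distance between centred log2(FPKM + 1) values. They were L1CAM, a neural cell adhesion molecule (distance 0.247), BGN, the matrix proteoglycan biglycan (0.397), UNC5B, a netrin receptor (0.440), LCNL1, a lipocalin-like gene (0.460), and CXCL14, a chemokine (0.513). L1CAM had 5.40 ± 0.365 FPKM in SLCDS and 0.557 ± 0.143 in control, and CXCL14 had 5.0 ± 0.348 and 0.777 ± 0.111 (SD, n = 3 each). Pearson's r with CACNG7 was 0.985 to 0.996 for the 5 genes over 6 libraries, which fall into 2 groups, so it mainly repeats the difference between groups.

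For GRIA2 the nearest profiles were SYT1, the calcium sensor of synaptic vesicles (distance 0.0800), CCDC80, a secreted matrix protein gene (0.0873), MICAL2, an actin-oxidizing enzyme gene (0.0877), ILDR2, an immunoglobulin-domain receptor gene (0.103), and GUCY1A2, a soluble guanylate cyclase subunit gene (0.115). SYT1 had 9.31, 9.72 and 9.87 FPKM in SLCDS and 7.17, 6.70 and 5.20 FPKM in control. Like GRIA2, it was lowest in control replicate 3. All 5 genes shared that low value, and r with GRIA2 was 0.991 to 0.998 over the 6 libraries. The genes were picked for a profile like that of GRIA2, so both follow largely from the choice.

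Other genes of AMPA receptor biology and of the remaining glutamate receptors were followed in 8 lists with 104 genes, 93 of them listed and 49 tested. By limma 3 rose and 1 fell at an adjusted p under 0.05, which is 6.12% of the tested genes called higher, against 4.28% of all tested genes. Their median log2 fold change was 0.02. Without control replicate 3, 11 rose and 3 fell, against 16% and 11.8% of all tested genes. With no filter 6 of the 93 rose and 1 fell, where 3.71% of all 16832 genes were called higher and 1.24% lower. The lists were drawn up with earlier results of these data known, so nothing is read from these counts.

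Of the 4 called genes, 3 were among the auxiliary and secreted partners. Of 23 auxiliary and secreted partners 17 were listed and 7 tested. Among these, 2 rose, 1 fell and 4 did not pass, with a median log2 fold change of 0.24. Over all tested genes 4.28% were called higher and 1.82% lower, and nothing is read from the count in this list. NPTXR, the membrane-bound pentraxin that clusters AMPA receptors, had 9.66, 9.89 and 9.51 FPKM in SLCDS and 6.45, 7.08 and 6.44 FPKM in control (log2 fold change 0.48, adjusted p 0.00979 by limma). It lost the call without any 1 of the SLCDS replicates, with adjusted p values up to 0.0756. NRN1, the membrane-anchored neurite growth factor neuritin, had 34.2, 34.7 and 34.7 FPKM in SLCDS and 21.95, 22.9 and 28.6 FPKM in control (log2 fold change 0.49, adjusted p 0.0375 by limma). It was called in 11 of 18 other settings, with adjusted p values up to 0.168.

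PRRT2, a proline-rich membrane protein of the presynaptic release machinery that is also found with AMPA receptors, was the gene that fell. It had 15, 16.05 and 16.7 FPKM in SLCDS and 25.0, 26.2 and 24.8 FPKM in control, a log2 fold change of -0.64 with an adjusted p of 0.00269 by limma. It remained called in 18 of 18 other settings. The type I TARP gene CACNG2 (stargazin), which stands in the same list, had a value above 0 in 1 SLCDS library only. That value counts as 1 fragment by the method of recovery. The 0 in the other 5 libraries allows up to 3 fragments in each of those. CACNG2 too was picked after its values were seen.

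Of 10 genes of receptor assembly in the endoplasmic reticulum and of RNA editing, 7 were tested and 0 called, with a median log2 fold change of 0.01, also 0 without control replicate 3. ADAR, an RNA editing enzyme, had 152 ± 3.41 FPKM in SLCDS and 138 ± 18.4 in control (adjusted p 0.571 by limma). CPT1C, a brain carnitine palmitoyltransferase relative that binds the receptor during assembly, had 20.8 ± 0.928 and 22.7 ± 1.22 FPKM (adjusted p 0.458 by limma). ADARB1, the enzyme that edits the Q/R site of GRIA2, had 0.743, 0.783 and 0.751 FPKM in SLCDS and 0.752, 0.885 and 0.760 FPKM in control. Its groups overlapped and it did not reach the filter. It falls outside the rule for named genes and was picked, after its values were seen, for its known role at the codon printed above.

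Of 25 scaffold and transport genes 18 were tested and 0 called, with 2 higher and 1 lower without control replicate 3. In that setting 16% of all tested genes were called higher and 11.8% lower. The 2 most abundant were NAPA, a vesicle fusion adaptor (83.1 FPKM in SLCDS and 84.2 in control), and KIF5B, a kinesin motor (56.6 ± 1.09 and 51.5 ± 9.02 FPKM, adjusted p 0.621 by limma). Without control replicate 3 NAPA was called higher (log2 fold change 0.15, adjusted p 0.0197 by limma). Of 16 kinase and phosphatase genes 11 were tested and 1 (9.09%) rose, where 4.28% of all tested genes were called higher. The gene that rose was FYN, a Src-family tyrosine kinase. It had 61.8, 66.3 and 61.3 FPKM in SLCDS and 48.6, 46.1 and 50.0 FPKM in control (log2 fold change 0.38, adjusted p 0.0233 by limma). It was called in 12 of 18 other settings, with adjusted p values up to 0.146. PPP1CA, a catalytic subunit of protein phosphatase, had 52.0 and 50.3 FPKM (adjusted p 0.858 by limma with all libraries and 0.0034 without control replicate 3).

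Of the other glutamate receptor genes with their adaptors, 0 of 6 tested were called. GRINA, of the NMDA receptor list by name, had 119 FPKM in SLCDS and 127 in control. The kainate receptor genes GRIK2 and GRIK3 had 7.42 ± 0.213 and 2.26 FPKM in SLCDS and 6.14 ± 0.589 and 2.43 FPKM in control, with adjusted p values of 0.186 and 0.874 by limma. HOMER1, a scaffold of metabotropic glutamate receptors, had 4.6 ± 0.306 and 3.07 ± 0.552 FPKM (log2 fold change 0.47, adjusted p 0.057 by limma), and HOMER3 had 23.5 and 22.3 FPKM (adjusted p 0.787 by limma). Among these lists, 2 genes were called higher without control replicate 3, where 16% of all tested genes were. They were HOMER1 and HOMER3 (adjusted p 0.0109 and 0.0119 by limma).

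**Figure D5:**
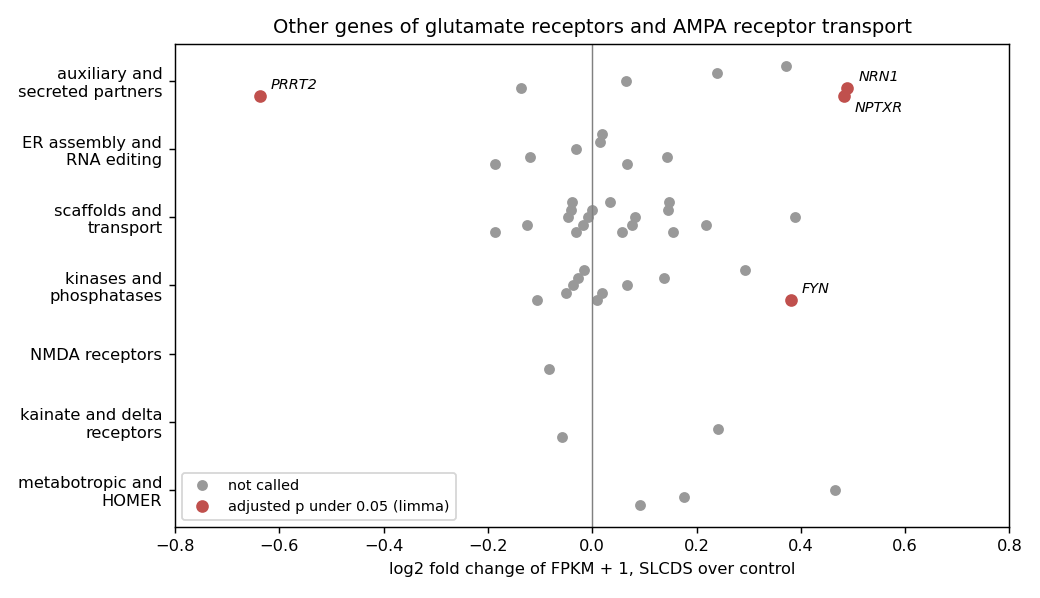
Log2 fold change of FPKM + 1, SLCDS over control (horizontal axis), of the 49 tested genes of 7 lists; each point is 1 gene, red where the adjusted p is under 0.05 by limma and grey otherwise, and vertical offsets only separate points. PRRT2 is the called gene on the left at -0.64, and NPTXR, NRN1 and FYN are those on the right between 0.38 and 0.49.

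Markers of cell types that carry these receptors were read beside the set. Astrocyte markers (7, of which 4 had a mean of 1 FPKM or more) summed to 283 to 300 FPKM in SLCDS and 548 to 608 in control, and oligodendrocyte lineage markers (8, of which 4 had a mean of 1 FPKM or more) to 37.3 to 39.4 and 45.8 to 64.4 FPKM, with SOX10 and MBP under 0.1 in every library. Microglial markers summed to under 1 FPKM in every library, with CX3CR1 and PTPRC under 0.1. Endothelial markers summed to 4.93 to 5.87 FPKM in SLCDS and 2.09 to 3.00 in control, with VWF under 0.1, and fibroblast markers to 364 to 371 and 363 to 395, with DCN under 0.1. The sums are set by their most abundant genes, and single markers moved both ways. In SLCDS 1 astrocyte marker lay above all controls, 3 lay below and 3 overlapped, and of the oligodendrocyte lineage markers 4 lay above, 1 lay below and 3 overlapped. Of all listed genes, 14.4% lay above and 10.8% below. The part of these differences in the levels of the receptor genes was not tested.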

How the data were processed

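Per the labels' protocols, TRIzol was used to extract total RNA and the VAHTS Universal V6 kit to make libraries. The authors deposited 1 table of FPKM per library, on a linear scale. No aligner, counting tool, strand setting or annotation is given in the sources used here, so fragments of antisense transcripts cannot be told apart. The only builds in the submitters' processing notes are those of mouse (GRCm38, mm10), although the symbols are human. The implied transcript length was within 5% of the GENCODE release 29 length for 669 of 1307 human genes with 1 annotated transcript (51.2%). The scale of the implied lengths was set by the median over these same genes, so they centre on the GENCODE lengths by construction.

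Whole fragments were recovered from the FPKM steps with a tolerance of 0.002 fragments, within which 100% of genes came out whole. Intervals cover counting error only (95%, exact binomial), and the floor was 3 fragments. Groups and replicate numbers came from the titles.

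Values were analysed as log2(FPKM + 1). The filter kept 11506 genes that reached 1 FPKM in 3 or more libraries. Groups were compared with limma 3.58.1 (R 4.3.3) and its mean-dependent variance prior, 2-sided, adjusting by Benjamini-Hochberg over these genes; the procedure was tested on simulated data. The genes of the set and the lists were chosen with earlier results of these data known. Besides the set, the text names up to 6 called genes per list or, if 0 or 1 was called, the 2 tested genes of highest FPKM, up to 2 neighbours on each side of a TARP gene, and the 5 genes nearest in profile to CACNG7 and GRIA2. Exceptions are marked, and 1 gene picked by this rule is not reported here, though counts include it.

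Alternatives were pseudocounts of 0.1 and 0.5, the filter left out or set on the mean FPKM, 3 scalings, 2 further priors for the variance, a replicate block, and each library left out. Added after seeing the data were voom on the recovered fragments (710 genes called, where limma on FPKM called 701), removal of each library's length and GC trend with splines of 4 degrees of freedom, and GENCODE lengths for the shares. Other steps ran in Python 3.11.15 (pandas 2.3.3, numpy 2.4.6, matplotlib 3.10.9, scipy 1.17.1).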

Additional observations from a re-analysis of the deposited data

How the results depend on the processing

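The 701 genes called became 1993 with the length and GC trend removed (1020 higher and 973 lower), 455 with a replicate block, and 276 to 3191 with 1 library left out, the highest without control replicate 3 and the lowest without SLCDS replicate 1. SLCDS was the higher group in 70.2% of calls, in 51.2% with the trend removed and in 57.6% without control replicate 3. The 3 related genes called higher became 7 with the trend removed, 6 with no filter, 5 with quantile normalization, 5 with voom on recovered fragments, and 0 to 11 with 1 library left out, being 0 without any 1 SLCDS replicate, 1 without control replicate 1 and 11 without control replicate 3. The 1 called lower ranged from 1 to 3, again highest without control replicate 3. The cause was not tested.

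Titles number the replicates 1 to 3 in both groups and name no pairing. Deviations of same-numbered libraries from their group means correlated at -0.326, 0.360 and 0.0652, and not every library correlated best with its own number. Because control replicate 3 stood apart, control replicates 1 and 2 mirrored it. SLCDS replicate 1, for instance, correlated at -0.326, -0.312 and 0.357 with control replicates 1 to 3. The correlations therefore cannot decide whether same-numbered libraries were handled together. With the replicate block, 1 related gene was called higher (NPTXR), and NRN1 and FYN lost their calls.

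The log2 difference of low genes depends on the pseudocount by construction. With 0.1 it was 0.76 for GRIA2, 0.99 for GRIA4, 0.61 for CACNG8 and 2.94 for CACNG7, and with 0.5 it was 0.44 for GRIA4, 0.46 for CACNG8 and 2.50 for CACNG7. Quantile normalization gave 0.21 for GRIA4 and 0.26 for CACNG8. With GENCODE lengths the difference in share, SLCDS minus control, was 12 percentage points for GRIA2 (14.8 with the authors' lengths) and 6.85 for GRIA4 (2.89). Voom, which adds no FPKM, gave 0.79 for GRIA2, 0.66 for CACNG8 and 3.07 for CACNG7; with the length and GC trend removed these were 0.51, 0.29 and 2.16. SLCDS was higher for GRIA2, CACNG7 and CACNG8 in 18 of 18 other settings. Every SLCDS library lay above every control for these genes, so only the scalings, voom and the trend removal could have turned this direction. GRIA2 was not called in 7 settings, among them the replicate block, the common FPKM sum and no filter. CACNG8 was not called in 9, among them the replicate block, the trend removal and quantile normalization. GRIA4, under the filter, has no value with voom or the trend removed. GRIA1, at 3 fragments or fewer, was left out. Depth limits GRIA4, CACNG7 in control and the genes near 0.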

Other observations

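NMDA receptors are the other main class of ionotropic glutamate receptor. Of their 7 subunit genes 6 were listed and all were under the filter on low values. For 5 of the 6 the SLCDS libraries lay above the controls, where 11.9% of listed genes under the filter did so. Their summed level was 1.42 to 1.79 FPKM in SLCDS and 0.698 to 0.842 FPKM in control. GRIN2B, a subunit known from developing forebrain, had 70, 68 and 94 fragments in SLCDS and 27, 13 and 12 in control, and GRIN2D had 47, 35 and 55 fragments in SLCDS and 20, 18 and 17 in control. By limma with no filter the adjusted p was 0.0232 for GRIN2B (log2 fold change 0.15) and 0.0270 for GRIN2D (0.30). Their means were 0.150 and 0.470 FPKM in SLCDS and 0.0344 and 0.194 FPKM in control. Of the 6 listed genes only these 2 were called, where 3.71% of all 16832 genes were called higher. Both were picked after their values were seen, so no support is drawn from the p values. GRIN1, the subunit that every NMDA receptor needs, had 2, 6 and 1 fragments in SLCDS and 3, 3 and 0 in control, so its groups overlapped.

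GRIP2, a PDZ scaffold that binds the tails of the GRIA2 and GRIA3 products, was the scaffold gene called with no filter. It was 1 of 25 listed scaffold and transport genes, where 3.71% of all 16832 genes were called higher. It had 1.01, 0.826 and 0.848 FPKM in SLCDS and 0.282, 0.252 and 0.228 FPKM in control, a ratio of 3.53 (adjusted p 0.00247 by limma with no filter). GRIN2B, GRIN2D, GRIN1 and GRIP2 were chosen after their values were seen. DLG4, the main synaptic scaffold that binds type I TARPs, was also picked in this way and had 19.03 ± 0.163 FPKM in SLCDS and 19.6 ± 0.620 FPKM in control (SD, n = 3 each), with an adjusted p of 0.801 by limma.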
